A study of Mus musculus with 14 samples.

Results

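The genes described here are those that encode the proteins of the cytosolic ribosome. They were taken from the deposited table by their symbols, as every row named Rpl, Rplp or Rps with a number (and Rpsa), without the kinases whose names begin with Rps6k and without rows marked as pseudogenes. The rule found 83 of the 16703 genes, 51 of the large subunit, including the stalk genes Rplp0, Rplp1 and Rplp2, and 32 of the small subunit. RNA came from the whole spinal cord of gonadectomized C57Bl/6 mice, aged 9 to 10 weeks when they were kept for acclimatization, in which experimental autoimmune encephalomyelitis (EAE, an immune attack on myelin) was induced with a peptide of the myelin protein MOG. When neurological signs began, mice of each sex received either the drug vehicle or intranasal dihydrotestosterone (DHT, an androgen that is not converted to estrogen) at 0.04 mg per day. The 14 libraries were 4 vehicle and 3 DHT libraries of females and 4 vehicle and 3 DHT libraries of males, while the methods give 4 animals per group. All groups were gonadectomized and diseased, so no healthy or intact reference is included. The comparison asked is DHT against vehicle within each sex.

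A ribosome consists of a large subunit, which joins amino acids, and a small subunit, which reads the mRNA, and each holds ribosomal RNA and one copy of most of its proteins. Mammalian ribosomal protein mRNAs start with a stretch of pyrimidines, the terminal oligopyrimidine (TOP) motif, through which the kinase mTORC1 and the protein Larp1 adjust their translation together. In nervous tissue ribosomal protein mRNAs are made by every cell type, and growing or dividing immune cells need many ribosomes.

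The start of the gene is shown first because the pyrimidine stretch is the feature the family is known for, and the rule for members did not use it. RefSeq promoters on GRCm38.p6 (250 bases before to 50 after the annotated start) were at hand for 62 of the 83 members. The start base lay inside an unbroken run of at least 5 pyrimidines in 18 of the 62 (29.0%), against 9.95% of 27025 promoters of the same length. A run of at least 8 pyrimidines within 20 bases of the start was found in 28 members (45.2%), against 15.9% of all promoters. Such runs can begin before the start, outside the mRNA, and only the first listed start of each gene was used. These shares are thus not counts of the TOP motif. The 8 windows below hold 25 bases before the start and 25 from the start on, 5′ to 3′, with the run through the start in capitals. Rpl7a, Rpl27a, Rpl35, Rpl15 and Rpl14 were shown for the longest runs, and Rps18, Rplp2 and Rps6 to show the small subunit, the stalk and the target of S6 kinase.
Rpl7a: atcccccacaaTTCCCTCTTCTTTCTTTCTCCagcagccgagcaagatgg
Rpl27a: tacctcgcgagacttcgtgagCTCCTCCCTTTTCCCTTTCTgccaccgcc
Rpl35: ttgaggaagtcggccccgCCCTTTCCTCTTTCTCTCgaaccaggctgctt
Rpl15: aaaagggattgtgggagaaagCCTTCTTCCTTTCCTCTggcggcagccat
Rpl14: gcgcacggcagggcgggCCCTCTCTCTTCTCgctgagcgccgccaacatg
Rps18: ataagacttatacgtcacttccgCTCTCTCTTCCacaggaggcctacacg
Rplp2: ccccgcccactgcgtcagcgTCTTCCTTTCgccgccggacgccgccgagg
Rps6: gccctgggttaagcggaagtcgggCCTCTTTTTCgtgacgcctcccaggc
The windows lie at chr2:26910782-26910831 (+ strand) for Rpl7a, chr7:109519170-109519219 (+ strand) for Rpl27a, chr2:39005107-39005156 (- strand) for Rpl35, chr14:18270962-18271011 (- strand) for Rpl15, chr9:120571492-120571541 (+ strand) for Rpl14, chr17:33955641-33955690 (- strand) for Rps18, chr7:141447626-141447675 (+ strand) for Rplp2 and chr4:86857343-86857392 (- strand) for Rps6. All 8 genes fell in females, and Rpl27a, Rps18 and Rplp2 also fell in males (limma adjusted p under 0.05 over all genes). Of all genes 27.3% fell in females and 10.7% in males. Rps10, whose run of 13 is longer than the 11 of Rps18, is not printed and did not pass in females (-0.18). The calls of these 8 thus do not stand for all members with such runs.

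Other short motifs were counted in the same promoters on both strands. CCGGAAG, the core bound by ETS factors, was found in 24 of 62 members (38.7%) against 9.12% of all promoters, and GGGCGG, the GC box, in 37 (59.7%) against 35.9%. GATGGC, the core bound by YY1, was found in 13 (21.0%) against 14.1%, TATAAA in 6 (9.68%) against 14.2% and CCAAT in 20 (32.3%) against 37.9%. The median log2 change in females was -0.64 in the 18 members with a pyrimidine run through the start and -0.72 in the other 44, and in males it was -0.35 and -0.45. A match is a description of the letters and says nothing about binding.

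Several properties of the libraries bear on every result. The values resolve into 29311155 to 35761972 reads per library after the authors' normalization. Female and male libraries come from separate datasets that the authors joined, so sex and dataset cannot be told apart. The columns cannot be tied to animals, so p-values measure the spread between these libraries. Xist, the RNA of the inactive X chromosome, was at 7.41 log2 CPM in male DHT 3, against -3.39 to 0.14 in the other 6 male libraries, so the library labelled male DHT 3 goes against its label. In female vehicle 3 Xist was at 3.04, against 6.80 to 9.22 in the other 6 female libraries. 1 direction of variation between libraries is also missing from the deposited values, to which male DHT 3 contributed 62.8% and female vehicle 3 23.7% of the squared weight, so libraries are not fully independent, and results are given with and without these 2 libraries. The 16 genes listed for spinal cord identity were all measured, with a summed level of 16328 to 26423 CPM over the libraries.

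With DHT the ribosomal protein genes fell as a family, in both sexes. In females 77 of the 83 members passed the test as lower (limma, Benjamini-Hochberg adjusted p under 0.05 over all 16703 genes) and 0 as higher, where 27.3% of all genes fell and 19.8% rose. In males 48 members fell and 0 rose, where 10.7% of all genes fell and 12.1% rose. At an unadjusted p under 0.05 the number that rose was 0 in both sexes, and voom also called 0 as higher. The median member changed by -0.69 on the log2 scale in females, a ratio of 0.620, and by -0.42 in males, a ratio of 0.749, while the median of all genes was -0.02 and 0.00. All DHT libraries lay below all vehicle libraries for 77 members in females, beside 21.4% of all genes, and for 72 in males, beside 20.4%. All 48 members that fell in males also fell in females, where 5.57% of all genes fell in both sexes. In bulk tissue, fewer cells rich in these mRNAs and less of them per cell cannot be told apart.

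The female count was 77 without female vehicle 3 and 78 without female DHT 3. The male count rested on single libraries. It was 12 without male DHT 3 (beside 3.92% of all genes), 11 without both libraries of doubt (3.44%) and 17 when that missing direction entered the model (5.05%). Leaving out male vehicle 4 gave 16 (4.88%), male DHT 4 gave 21 (7.80%) and male vehicle 1 gave 28 (6.27%). The size of the change held: without male DHT 3 the male median was -0.40 and 81 of 83 members had a negative change. The 12 members that fell in males whichever library was left out were Rpl3, Rpl34, Rpl36, Rpl37, Rpl37a, Rplp1, Rplp2, Rps14, Rps19, Rps20, Rps21 and Rps29, and in females 75 members did so. The other 36 male calls, those named below included, did not pass without male DHT 3.

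Summed over the family, the share of all reads was 1.59, 1.43, 1.56 and 1.86% in the female vehicle libraries 1 to 4 and 0.866, 0.895 and 1.23% in the female DHT libraries 1 to 3. The DHT libraries were all lower, with DHT 3 between DHT 1 and DHT 2 on one side and the vehicle libraries on the other. In males the share was 1.89, 1.83, 1.74 and 2.06% in the vehicle libraries 1 to 4 and 1.51, 1.34 and 1.34% in the DHT libraries 2 to 4. The male groups did not overlap either, and their DHT libraries lay closer to one another. The means were 1.61 ± 0.18% (SD, n = 4) and 0.999 ± 0.205% (n = 3) in females, and 1.88 ± 0.14% (n = 4) and 1.40 ± 0.10% (n = 3) in males.

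**Figure D1:**
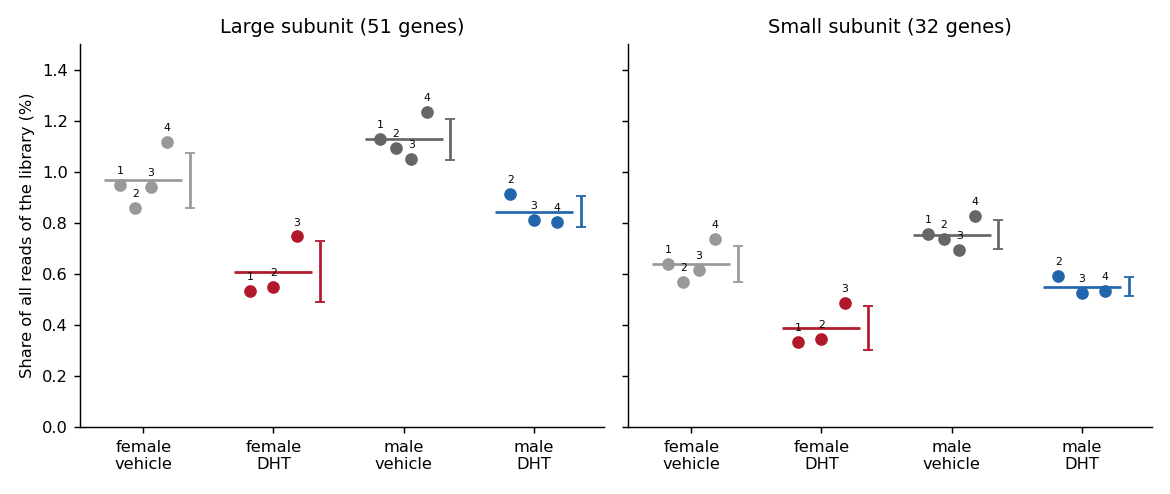
Share of all reads (percent, from 0) that fell on the 51 large subunit genes (left) and the 32 small subunit genes (right), 1 dot per library with its number, a line at the group mean and a bar of 1 SD. In both sexes every DHT library lies below every vehicle library, and female DHT 3 lies nearest to its vehicle group.

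Within a group the members moved together from library to library. Female DHT 3 was the highest of its group for 81 of the 83 members, and female DHT 1 the lowest for 60. Vehicle 4 was the highest of the vehicle libraries for 74 members in females and for 74 in males, while female vehicle 2 was the lowest for 66 and male vehicle 3 for 71. Male DHT 2 was the highest of its group for 66. The deviation of a member from its group means correlated with that of the other members with a median r of 0.943 over the 14 libraries, and the r was above 0.9 for 59 members. These points share libraries and their scaling, so the correlation is a description.

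**Figure D2:**
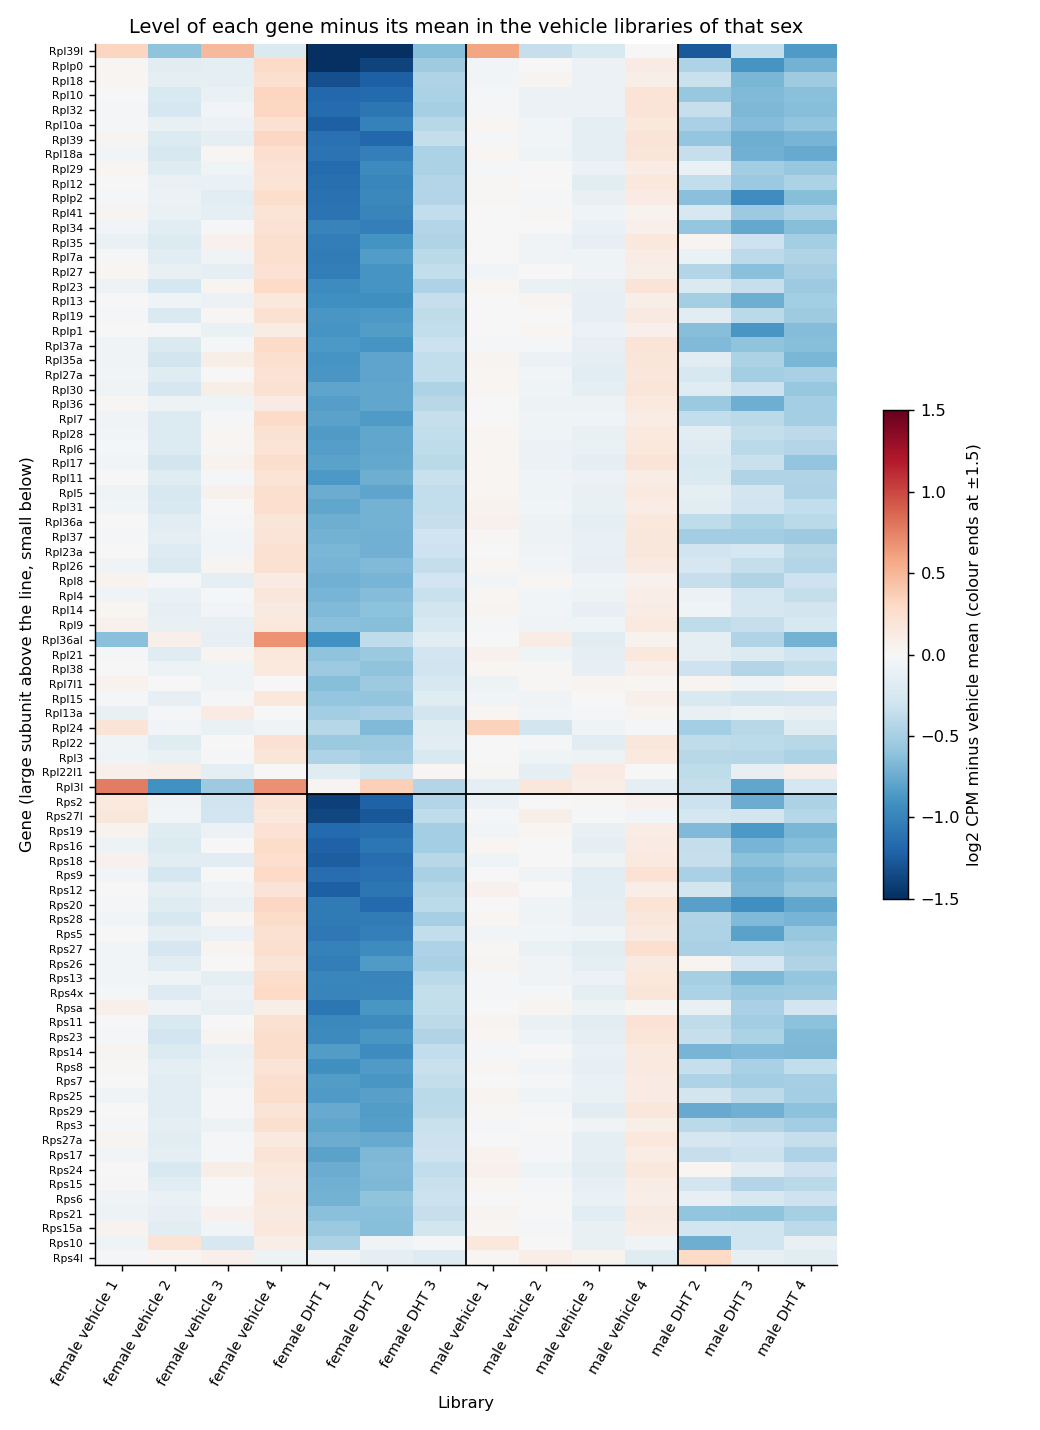
Level of each of the 83 genes in each of the 14 libraries, as log2 CPM minus the mean of the vehicle libraries of the same sex (colour, blue lower and red higher, ends at ±1.5), with genes ordered by their female change within the large and the small subunit. Most rows are blue in all DHT libraries, deepest in female DHT 1 and 2, and the vehicle columns numbered 4 are reddish for most genes.

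The stalk of the large subunit is built of Rplp0, which anchors it, and of Rplp1 and Rplp2, which recruit the GTPases of translation. Rplp0 stood at 8.57, 8.40, 8.42 and 8.84 log2 CPM in the female vehicle libraries 1 to 4 and 6.95, 7.17 and 8.02 in the female DHT libraries 1 to 3. In males it stood at 8.92, 8.96, 8.88 and 9.09 log2 CPM in the male vehicle libraries 1 to 4 and 8.50, 8.08 and 8.25 in the male DHT libraries 2 to 4. In each sex the DHT libraries were all below the vehicle libraries. The change of Rplp0, the steepest fall among members with a mean above 5 log2 CPM in females, was -1.18 ± 0.21 (SE, limma adjusted p = 0.00478) in females and -0.69 ± 0.21 (SE, limma adjusted p = 0.0317) in males.

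Rplp1 was measured at 7.84, 7.82, 7.74 and 7.94 log2 CPM in the female vehicle libraries 1 to 4 and 6.95, 7.00 and 7.46 in the female DHT libraries 1 to 3. Its male values were 8.36, 8.40, 8.28 and 8.45 log2 CPM in the male vehicle libraries 1 to 4 and 7.73, 7.49 and 7.72 in the male DHT libraries 2 to 4. The groups did not overlap, and male DHT 3 was the lowest male library. Its change was -0.70 ± 0.11 (SE, limma adjusted p = 0.00478) in females and -0.72 ± 0.11 (SE, limma adjusted p = 0.00411) in males, nearly the same size in the sexes. Rplp2, its partner, changed by -0.84 ± 0.15 (SE, limma adjusted p = 0.00478) in females and -0.73 ± 0.15 (SE, limma adjusted p = 0.00789) in males. Without male DHT 3 the male changes were -0.64 for Rplp1 and -0.64 for Rplp2, and both still fell.

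Among small subunit members Rps2, at the mRNA entry of the subunit, had the largest fall in females. It was at 8.36, 8.16, 7.92 and 8.41 log2 CPM in the female vehicle libraries 1 to 4 and 6.81, 7.00 and 7.77 in the female DHT libraries 1 to 3. Female DHT 1 and 2 were far below the others, and the groups did not overlap. Its change was -1.01 ± 0.19 (SE, limma adjusted p = 0.00478) in females, while in males it was -0.51 ± 0.19 (SE, limma adjusted p = 0.0727), not past the threshold, although its 3 DHT libraries were also below the 4 vehicle libraries.

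Rps20, a protein of the head of the small subunit, had the largest fall in males. It was at 7.65, 7.58, 7.50 and 7.86 log2 CPM in the male vehicle libraries 1 to 4 and 6.83, 6.73 and 6.86 in the male DHT libraries 2 to 4. All male DHT libraries were below all vehicle libraries by more than the spread within either group. The change was -0.87 ± 0.17 (SE, limma adjusted p = 0.00478) in females and -0.84 ± 0.17 (SE, limma adjusted p = 0.0075) in males. Rps19, which is mutated in Diamond-Blackfan anemia in humans, changed by -0.93 ± 0.14 (SE, limma adjusted p = 0.00478) in females and -0.74 ± 0.14 (SE, limma adjusted p = 0.00704) in males, and Rps14, whose loss causes the anemia of the human chromosome 5q deletion, by -0.71 ± 0.13 (SE, limma adjusted p = 0.00478) in females and -0.68 ± 0.13 (SE, limma adjusted p = 0.00709) in males. All 3 fell in males whichever library was left out.

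Rps21 and Rps29, small proteins of the small subunit, fell by like amounts in the sexes. Rps29 was at 7.81, 7.78, 7.62 and 7.95 log2 CPM in the male vehicle libraries 1 to 4 and 7.03, 7.07 and 7.18 in the male DHT libraries 2 to 4. The male DHT libraries lay within a narrow range below the vehicle libraries. The changes of Rps29 were -0.66 ± 0.11 (SE, limma adjusted p = 0.00478) in females and -0.69 ± 0.11 (SE, limma adjusted p = 0.00485) in males, and those of Rps21 were -0.53 ± 0.09 (SE, limma adjusted p = 0.00478) in females and -0.56 ± 0.09 (SE, limma adjusted p = 0.00438) in males. Rpl36 and Rpl34 fell by 0.60 and 0.66 on the log2 scale in males and by 0.68 and 0.82 in females.

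Members with roles outside the ribosome followed the family in females. Rpl5 and Rpl11 bind the ubiquitin ligase Mdm2 together with a small ribosomal RNA when assembly is disturbed. Rpl11 was at 7.70, 7.51, 7.68 and 7.90 log2 CPM in the female vehicle libraries 1 to 4 and 6.83, 6.97 and 7.37 in the female DHT libraries 1 to 3, with no overlap, and changed by -0.64 ± 0.12 (SE, limma adjusted p = 0.00478) in females and -0.37 ± 0.12 (SE, limma adjusted p = 0.0445) in males. Rpl5 changed by -0.64 ± 0.13 (SE, limma adjusted p = 0.00478) in females, and its male value was -0.29 ± 0.13 (SE, limma adjusted p = 0.116). Rps27a, which is made as a fusion with ubiquitin, changed by -0.61 ± 0.11 (SE, limma adjusted p = 0.00478) in females, with a male value of -0.30 ± 0.11 (SE, limma adjusted p = 0.0598). Rps3, which also has DNA repair activity, fell in both sexes, by 0.65 in females and 0.46 in males on the log2 scale.

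Rps6 is the substrate of S6 kinase and its phosphorylation is the usual readout of mTORC1. Rps6 was at 7.66, 7.61, 7.70 and 7.87 log2 CPM in the female vehicle libraries 1 to 4 and 7.00, 7.10 and 7.38 in the female DHT libraries 1 to 3. The groups did not overlap, and the change was -0.55 ± 0.09 (SE, limma adjusted p = 0.00478). In males it was at 7.80, 7.80, 7.69 and 7.90 log2 CPM in the male vehicle libraries 1 to 4 and 7.67, 7.55 and 7.48 in the male DHT libraries 2 to 4, a difference of -0.23 ± 0.09 (SE, limma adjusted p = 0.0923), which did not pass the threshold. Rpl38, required in mouse embryos for translation of Hox mRNAs, changed by -0.48 ± 0.08 (SE, limma adjusted p = 0.00478) in females and -0.37 ± 0.08 (SE, limma adjusted p = 0.0108) in males. Rpl10, which joins the large subunit late, changed by -0.94 ± 0.16 (SE, limma adjusted p = 0.00478) in females and -0.62 ± 0.16 (SE, limma adjusted p = 0.0208) in males.

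Rpl22, needed in mice for the development of alpha-beta T cells, was the one member called in females whose groups overlapped. It was at 6.98, 6.86, 7.03 and 7.27 log2 CPM in the female vehicle libraries 1 to 4 and 6.48, 6.49 and 6.87 in the female DHT libraries 1 to 3. Female DHT 3 reached the level of the lowest vehicle library. The change was -0.42 ± 0.11 (SE, limma adjusted p = 0.0102) in females and -0.39 ± 0.11 (SE, limma adjusted p = 0.0269) in males. Rpl3, which reaches into the peptidyl transferase center, had the smallest fall among the called female members, with -0.40 ± 0.09 (SE, limma adjusted p = 0.00499) in females and -0.44 ± 0.09 (SE, limma adjusted p = 0.00713) in males.

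Rpl14, Rpl21, Rpl35 and Rpsa are members that the study singled out in these libraries, so their direction is not independent evidence. All 4 fell in females and none passed in males. Rpsa, also known as a laminin receptor, was at 8.95, 8.83, 8.77 and 8.98 log2 CPM in the female vehicle libraries 1 to 4 and 7.80, 8.01 and 8.51 in the female DHT libraries 1 to 3. Its female groups did not overlap, and its change was -0.78 ± 0.14 (SE, limma adjusted p = 0.00478) in females and -0.29 ± 0.14 (SE, limma adjusted p = 0.144) in males. Rpl35 was at 7.22, 7.16, 7.10 and 7.38 log2 CPM in the male vehicle libraries 1 to 4 and 7.26, 6.90 and 6.71 in the male DHT libraries 2 to 4, with male DHT 2 among the vehicle values, and changed by -0.79 ± 0.16 (SE, limma adjusted p = 0.00478) in females and -0.26 ± 0.16 (SE, limma adjusted p = 0.25) in males. Rpl14 changed by -0.52 ± 0.10 (SE, limma adjusted p = 0.00478) in females and -0.20 ± 0.10 (SE, limma adjusted p = 0.164) in males, and Rpl21 by -0.48 ± 0.10 (SE, limma adjusted p = 0.00484) in females and -0.21 ± 0.10 (SE, limma adjusted p = 0.146) in males.

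Some ribosomal proteins have a second, like-named gene, and not all of these partners passed the test. Rpl22l1 was at 5.43, 5.45, 5.21 and 5.35 log2 CPM in the female vehicle libraries 1 to 4 and 5.18, 5.09 and 5.39 in the female DHT libraries 1 to 3, with overlap, and its differences were -0.14 ± 0.11 (SE, limma adjusted p = 0.296) in females and -0.14 ± 0.11 (SE, limma adjusted p = 0.356) in males. Rpl7l1 was at 5.73, 5.68, 5.62 and 5.69 log2 CPM in the female vehicle libraries 1 to 4 and 5.04, 5.14 and 5.44 in the female DHT libraries 1 to 3, with all DHT libraries below. Its male values were 5.51, 5.61, 5.62 and 5.62 log2 CPM in the male vehicle libraries 1 to 4 and 5.63, 5.53 and 5.62 in the male DHT libraries 2 to 4, which overlapped, and its differences were -0.48 ± 0.08 (SE, limma adjusted p = 0.00478) in females and 0.00 ± 0.08 (SE, limma adjusted p = 0.983) in males. Rpl7 itself changed by -0.67 ± 0.13 (SE, limma adjusted p = 0.00478) in females and -0.43 ± 0.13 (SE, limma adjusted p = 0.0317) in males.

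Rps27l, a target of p53, was at 4.70, 4.49, 4.24 and 4.69 log2 CPM in the female vehicle libraries 1 to 4 and 3.17, 3.25 and 4.14 in the female DHT libraries 1 to 3. Female DHT 1 and 2 were lowest and the groups did not overlap. The change was -1.01 ± 0.19 (SE, limma adjusted p = 0.00478), and the male difference was -0.32 ± 0.19 (SE, limma adjusted p = 0.243). Rps27 changed by -0.81 ± 0.14 (SE, limma adjusted p = 0.00478) in females and -0.49 ± 0.14 (SE, limma adjusted p = 0.0288) in males. Rps4l, annotated as a transcribed processed pseudogene, was at 4.36, 4.42, 4.47 and 4.32 log2 CPM in the female vehicle libraries 1 to 4 and 4.33, 4.25 and 4.20 in the female DHT libraries 1 to 3, with overlap, and its differences were -0.13 ± 0.11 (SE, limma adjusted p = 0.329) in females and 0.00 ± 0.11 (SE, limma adjusted p = 0.989) in males. Its parent Rps4x, named here after the values were seen, changed by -0.78 ± 0.15 (SE, limma adjusted p = 0.00478) in females and -0.52 ± 0.15 (SE, limma adjusted p = 0.0267) in males.

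Rpl39l, a partner of Rpl39 known from testis, is measured by few reads. It was at -1.03, -1.97, -0.87 and -1.57 log2 CPM in the female vehicle libraries 1 to 4 and -3.99, -3.07 and -2.00 in the female DHT libraries 1 to 3, where the value of female DHT 1 is that of a gene without reads. The groups did not overlap, but the size of its change, -1.66 ± 0.45 (SE, limma adjusted p = 0.0104) in females and -0.83 ± 0.45 (SE, limma adjusted p = 0.195) in males, depends on the small constant in the deposited log2 values. Rpl39 changed by -0.88 ± 0.18 (SE, limma adjusted p = 0.00478) in females and -0.67 ± 0.18 (SE, limma adjusted p = 0.0201) in males. Rpl3l, the partner of Rpl3 known from heart and skeletal muscle, lay between -2.16 and -0.48 log2 CPM in the 14 libraries with wide overlap in females, and its differences were -0.01 ± 0.39 (SE, limma adjusted p = 0.978) in females and -0.47 ± 0.39 (SE, limma adjusted p = 0.4) in males. Rpl36al differed by -0.49 ± 0.28 (SE, limma adjusted p = 0.173) in females and -0.44 ± 0.28 (SE, limma adjusted p = 0.283) in males and Rpl36a changed by -0.60 ± 0.11 (SE, limma adjusted p = 0.00478) in females and -0.42 ± 0.11 (SE, limma adjusted p = 0.0174) in males. Tests of the difference between a gene and its partner were not made.

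**Figure D3:**
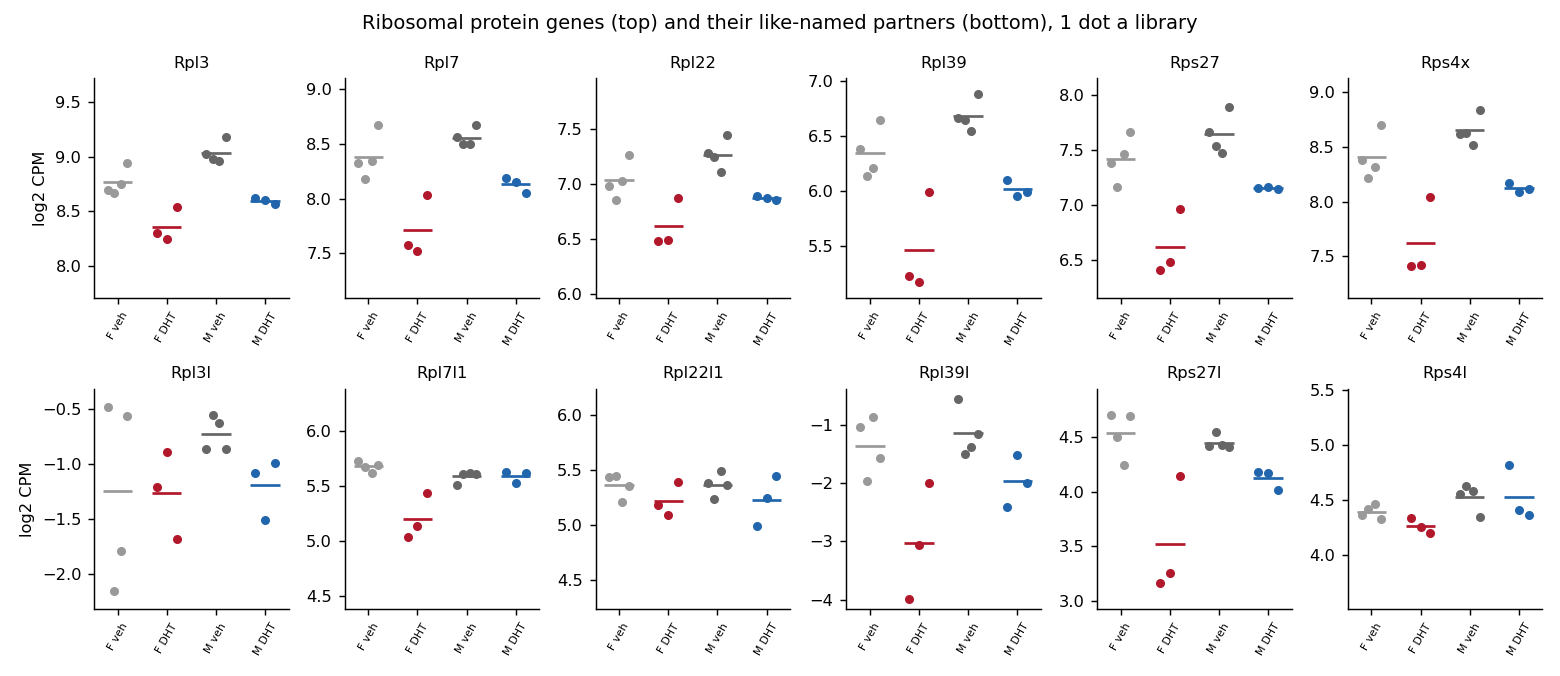
Level (log2 CPM) of 6 ribosomal protein genes (top) and their like-named partners (bottom) in female (F) and male (M) vehicle (veh) and DHT libraries, 1 dot per library and a line at the group mean, with axes that differ in position between genes. The top genes are lower with DHT in both sexes, while Rpl22l1 and Rps4l overlap between groups and Rpl7l1 is lower in the female DHT libraries and overlaps between the male groups, although the test of its difference between the sexes did not pass.

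The 6 members not called in females were Rpl22l1, Rpl24, Rpl36al, Rpl3l, Rps10 and Rps4l. Of the 75 members with a mean of at least 5 log2 CPM, 74 fell in females and 48 in males. The 8 below it were Rpl13a, Rpl24, Rps10, Rpl36al, Rpl39l, Rpl3l, Rps27l and Rps4l. In 4 of these 8, Rpl13a, Rpl24, Rps10 and Rpl36al, another annotated gene overlaps on the same strand in GENCODE M21, as is the case for Rpl13 and Rpl19 among the 75. Rpl24, which is mutated in the mouse strain Belly spot and tail, stood at 0.95, 0.71, 0.66 and 0.71 log2 CPM in the female vehicle libraries 1 to 4 and 0.33, 0.10 and 0.58 in the female DHT libraries 1 to 3, and Rps10 at 1.54, 1.81, 1.37 and 1.71 log2 CPM in the female vehicle libraries 1 to 4 and 1.13, 1.54 and 1.59 in the female DHT libraries 1 to 3. These low levels are those of reads assigned to the gene by the authors' counting, and reads that match 2 genes may be left out there. Ribosomal protein genes also have many processed pseudogenes of nearly the same sequence, so the counts of all members are uncertain to that extent.

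The members are spread over 19 chromosomes, with the highest number, 14, on chromosome 7. Rplp0 is at chr5:115559467-115563727 (+ strand), Rps20 at chr4:3831334-3835665 (- strand), Rps2 at chr17:24718116-24721929 (+ strand) and Rpl10 at chrX:74270812-74273135 (+ strand) on GRCm38. The median of their coding transcripts was 704 bases. Of 2472 other genes with a median coding transcript under 1000 bases, 35.1% fell in females (median -0.12) and 16.7% in males (median -0.09). Of 173 genes that were also within the middle range of the members' levels, 30.1% and 15.0% fell. snoRNAs lie inside 29 members, all of which fell in females (median -0.76), and 17 fell in males. The other 54 members had a female median of -0.67, with 48 that fell.

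The fall was deeper in females for 76 of the 83 members, but the test of the difference between the sexes called 0 members, where 1.86% of all genes passed. At an unadjusted p under 0.05, 11 of the 83 members passed, a smaller share than the 28.0% of all genes. At an adjusted p under 0.05 voom called 1 member. The median difference was -0.27 on the log2 scale. The smallest adjusted p belonged to Rpl7l1, with -0.48 ± 0.11 (SE, limma adjusted p = 0.0507), and Rps26, at the mRNA exit of the small subunit, had -0.57 ± 0.20 (limma adjusted p = 0.104). Rps26 was at 7.60, 7.51, 7.43 and 7.69 log2 CPM in the male vehicle libraries 1 to 4 and 7.60, 7.31 and 7.11 in the male DHT libraries 2 to 4, with male DHT 2 among the vehicle values. This count rested on 1 library: without female DHT 3, 38 members differed between the sexes, where 25.4% of all genes did. Without male DHT 3 it was 0 for the members and for all genes. A member passing in females and not in males is therefore not shown to differ. Over the 83 members the female and the male changes correlated with r = 0.605, against 0.474 over all genes, a description across genes, which are not independent.

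**Figure D4:**
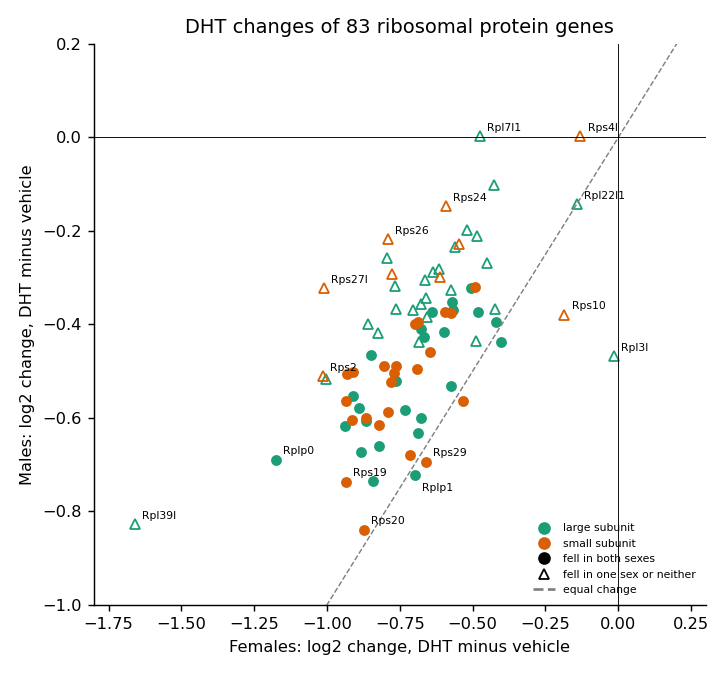
Change with DHT (log2, DHT minus vehicle) of each of the 83 genes in females (horizontal axis) and males (vertical axis), coloured by subunit, with filled circles for genes that fell in both sexes, open triangles for the others and a dashed line of equal change. Most points lie above the line, and 76 genes fell further in females, although the test of that difference called 0 of them.

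Members of both subunits fell. The large subunit had 47 of 51 members that fell in females (median -0.67) and 25 in males (median -0.40). The small subunit had 30 of 32 in females (median -0.77) and 23 in males (median -0.49). In males 7 large and 5 small subunit members fell without male DHT 3. The mean of the large members minus that of the small members was -0.49 to -0.45 log2 units in the female vehicle libraries and -0.45 to -0.40 in the female DHT libraries, and in males -0.50 to -0.47 and -0.46 to -0.44. The ratio of reads on large to reads on small members was 1.51 ± 0.02 (SD, n = 4) with vehicle and 1.57 ± 0.04 (n = 3) with DHT in females, and 1.49 ± 0.01 (n = 4) and 1.53 ± 0.02 (n = 3) in males. The shift between subunits was thus small beside the fall of both, and as a score over the members it was not tested.

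Ribosomal proteins whose symbols the rule does not cover fell too. Rack1, a scaffold of the small subunit, was at 7.93, 7.77, 7.81 and 8.28 log2 CPM in the female vehicle libraries 1 to 4 and 6.49, 6.63 and 7.50 in the female DHT libraries 1 to 3, with no overlap, and fell by 1.08 in females and 0.75 in males on the log2 scale. Fau, which encodes a small subunit protein fused to a ubiquitin-like protein, fell by 0.96 and 0.79. Rps3a1 fell by 0.55 in females, and its male value was -0.30, not past the threshold. Of the 4 such genes listed, 2 fell in males, Rack1 and Fau, and without male DHT 3 the number was 0. Other known TOP mRNAs, a list that shares genes with these and with the elongation factors, had 19 of 23 that fell in females (median -0.43, 0 rose) and 6 in males (median -0.26, 2 rose). The male numbers were 2 that fell and 0 that rose without male DHT 3, and without female vehicle 4 they were 9 and 2.

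Translation factors were mixed. In females 7 of 11 elongation factors fell (63.6%) and 2 rose, and the male numbers were 3 (27.3%) and 2. Eef1a1, which brings aminoacyl-tRNA to the ribosome, fell by 0.84 in females and was at -0.50 in males, not past the threshold, while Eef1a2, its partner in neurons and muscle, rose by 0.48 in females. In females 20 of 36 initiation factors fell and 2 rose (median -0.23), and the male numbers were 3 and 7 (median 0.05). The shares of initiation factors that fell were 55.6% in females and 8.33% in males, beside 27.3% and 10.7% of all genes. Eif3f fell by 0.52 in females and 0.66 in males. After centring on housekeeping genes 7 initiation factors fell and 7 rose in females, and 4 elongation factors fell and 4 rose. In males 1 elongation and 1 initiation factor fell without male DHT 3, and 4 and 6 fell without female DHT 3. Without female DHT 1 the initiation factors that fell in females were 13.

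Of 72 ribosome biogenesis factors, 30 fell (41.7%) and 2 rose in females (median -0.17), beside 27.3% and 19.8% of all genes. In males 0 fell and 23 rose (31.9%, median 0.17, background 12.1%). Brix1, a large subunit assembly factor, was at 4.40, 4.51, 4.32 and 4.29 log2 CPM in the male vehicle libraries 1 to 4 and 4.95, 4.89 and 4.98 in the male DHT libraries 2 to 4, with all DHT libraries above all vehicle libraries, and rose by 0.56. Rpf2, which brings Rpl5 and Rpl11 into the particle, rose by 0.57 in males, with -0.01 in females, and Nop58, a core protein of box C/D snoRNPs, by 0.50. Without male DHT 3 the number that rose was 8, beside 3.27% of all genes, with Brix1, Rpf2 and Nop58 among them (male median 0.19). The female direction of this list depended on the scaling: after centring on housekeeping genes 9 fell and 11 rose (median 0.03), and after quantile normalization 15 fell and 5 rose (median -0.02), while in males 20 and 26 rose and 1 fell under either scaling. With each library left out 12 (without female DHT 1) to 33 fell in females. For 7 of the 72 (9.72%, all genes 1.86%) the sexes differed by the test of the difference, Brix1 and Rpf2 among them. This count rested on single libraries, and the share of all genes moved as well. Leaving out male DHT 3, among others, gave 0, where all genes also gave 0. Leaving out female vehicle 3 gave 16 (22.2%, all genes 4.57%) and female DHT 3 gave 39 (54.2%, all genes 25.4%). After centring on housekeeping genes it was 1 (1.39%, all genes 3.12%). Of 20 RNA polymerase I genes 6 passed as lower in females (30%, all genes 27.3%) and 1 in males (5%, all genes 10.7%), where 2 rose. After centring on housekeeping genes 3 fell and 4 rose in females. The male numbers were 0 and 1 without male DHT 3, and with each library left out 4 (without female DHT 1 or 2) to 8 fell in females.

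Other large protein complexes had medians nearer to 0. Of 77 mitochondrial ribosomal proteins 11 fell in females (median -0.07) and 6 in males (median -0.01), shares of 14.3% and 7.79%, below the 27.3% and 10.7% of all genes. Nuclear subunits of oxidative phosphorylation had 10 of 83 that fell in females (median 0.01) and 25 of 83 in males (median -0.06). Their female share was below the 27.3% of all genes, while their male share, 30.1%, was above the 10.7% of all genes. The proteasome had 22 of 39 that fell in females (56.4%, above the share of all genes, median -0.24) and 0 in males (median 0.05). In females 7 fell and 6 rose after centring on housekeeping genes. That scaling also gave 4 mitochondrial ribosomal proteins that fell and 21 that rose in females. For oxidative phosphorylation 2 fell and 46 rose in females under it (median 0.20). With each library left out the mitochondrial ribosomal proteins that fell were 5 (without female DHT 1, DHT 2 or vehicle 4) to 18 (without female DHT 3) in females and 2 (without male DHT 2 or 3) to 8 in males. Those of oxidative phosphorylation were 1 (without female DHT 1 or 2) to 13 in females and 9 (without male DHT 3) to 27 in males, and of the proteasome 12 (without female DHT 1) to 26 in females. The 20 housekeeping genes had a median of -0.18 in females, where 11 fell and 3 rose, and 0.04 in males. They include Psmb2 and Psmb4 of the proteasome and Sdha of oxidative phosphorylation. Centring on them is thus not independent of those lists. The table holds 4 ribosomal protein pseudogenes, of which 1 fell in females and 0 in males.

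**Figure D5:**
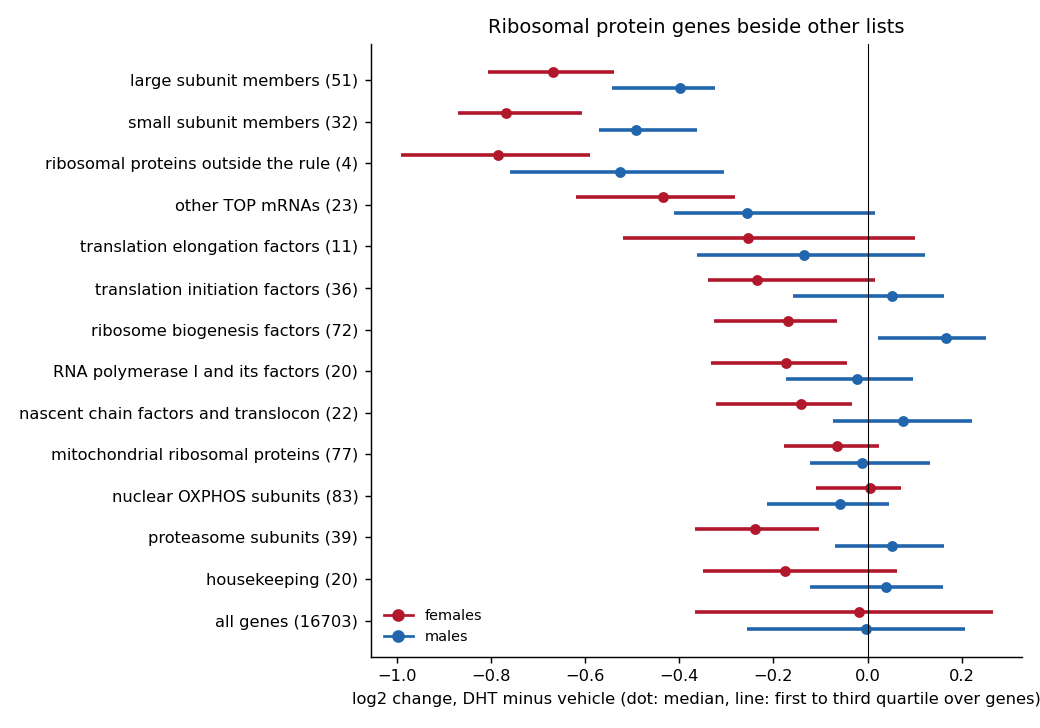
Change with DHT (log2, DHT minus vehicle) of the genes of each list, with the number of genes measured in parentheses, in females and males (dot the median over genes, line from the first to the third quartile). The large and small subunit genes and the 4 ribosomal proteins outside the rule lie farthest to the left, and the ribosome biogenesis factors lie on opposite sides of 0 in the sexes, which centring on housekeeping genes ends (female median 0.03).

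Markers of macrophages, microglia and T cells had negative median changes with DHT in both sexes, and more of them passed the test in females. Macrophage and monocyte markers (15 of 15 measured, 14 fell in females and 2 in males) summed to 1490 to 5755 CPM in female vehicle, 68.6 to 1328 in female DHT, 4921 to 6785 in male vehicle and 1121 to 2632 in male DHT libraries. Microglia markers (15 of 15, 13 fell in females and 7 in males) summed to 1585 to 3096 CPM in female vehicle, 451 to 1594 in female DHT, 3271 to 4679 in male vehicle and 1319 to 2069 in male DHT libraries. T cell markers (17 of 20, 16 fell in females and 0 in males) summed, without Thy1, which neurons also make and which carries most of the sum, to 96.9 to 200 CPM in female vehicle, 7.39 to 80.7 in female DHT, 133 to 218 in male vehicle and 64.3 to 157 in male DHT libraries. Female DHT 3 was the highest DHT library of its sex in these 3 sums, as it was for the ribosomal protein genes. Without male DHT 3 the male numbers that fell were 0 for macrophage and monocyte markers, 4 for microglia markers and 0 for T cell markers, and without female DHT 3 they were 5, 11 and 5. Without male vehicle 4 or male DHT 4 it was 3 for microglia markers, and without female DHT 1 the female number for these was 8. The test of the difference between the sexes called 0 genes in each of these 3 lists. Without female DHT 3 it called 10 macrophage and monocyte, 4 microglia and 14 T cell markers, where 25.4% of all genes passed.

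Proliferation markers (16 of 16 measured, 16 fell in females and 0 in males) summed to 286 to 418 CPM in female vehicle, 75.1 to 277 in female DHT, 262 to 397 in male vehicle and 262 to 363 in male DHT libraries. The test of the difference between the sexes called 0 of these 16, and 16 without female DHT 3, where 25.4% of all genes passed. B cell and plasma cell markers (7 of 10, 1 fell in females and 0 in males) were low, with 3.94 to 9.79 CPM in female vehicle, 3.36 to 5.28 in female DHT, 5.74 to 12.7 in male vehicle and 4.87 to 6.87 in male DHT libraries. Neuron markers (18 of 18, 17 rose in females and 6 in males) summed to 6876 to 9547 CPM in female vehicle, 10077 to 13038 in female DHT, 6672 to 7650 in male vehicle and 9156 to 9918 in male DHT libraries, and oligodendrocyte markers (15 of 15, 7 rose in females and 4 in males) to 16928 to 20870 CPM in female vehicle, 22617 to 26964 in female DHT, 18152 to 21055 in male vehicle and 18306 to 24647 in male DHT libraries. In males 1 neuron and 2 oligodendrocyte markers rose without male DHT 3, and 10 and 5 rose without female DHT 3. Without female DHT 1 the proliferation markers that fell in females were 7, and the oligodendrocyte markers that rose there 1. Of the 123 markers of these lists, of astrocytes and of spinal cord identity, 0 lacked reads in any library. The part of these cell types in the fall of the ribosomal protein genes was not tested.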

How the data were processed

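RNA of whole spinal cord was sequenced in 14 libraries, prepared with a strand-specific kit. For quality control the authors ran FastQC and Picard, and fastp did the trimming. DRAGEN aligned and counted reads on mm10 (GENCODE annotation). The authors integrated the sexes with RUVSeq on housekeeping genes, filtered low genes and normalized with edgeR. The authors deposited log2 CPM values of 16703 genes, which resolve into whole reads in 100% of cases within 0.05, with 0.0631 CPM for a gene without reads. Fold changes and p-values of the authors' own comparisons in the same table were not used.

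A linear model of limma 3.58.1 (R 4.3.3, eBayes with trend) was fitted to the deposited log2 values of the 4 groups in one model, with no filter or added pseudocount, and p-values were adjusted by Benjamini-Hochberg over all 16703 genes. Log2 changes are on the scale of the deposited values and understate changes of genes with few reads. Members were found by symbol. The members, the lists of genes and the tests were chosen with earlier results of these data known. Columns were tied to groups by their names. Named members are the 8 called with the smallest adjusted p and the 4 with the largest change in each direction per sex, the 4 with the smallest interaction p, the 3 with most and the 3 with fewest reads, those the study names, partner pairs and members of known special roles; from other lists the 4 with the smallest p were eligible. Members whose start sequence is printed were chosen for that sequence. The fit was tested on simulated data. Alternatives were a mean log2 CPM floor of 1, quantile scaling, centring on 20 housekeeping genes, a pseudocount of 1, separate fits per sex, no trend, array weights, voom on the recovered reads, the missing direction as a covariate (found in 10958 genes whose lowest library held 200 reads or more), an adjusted p of 0.01, each library left out and, chosen after seeing the data, the column number as a replicate block. Positions and overlaps are from GENCODE M21 on GRCm38, the build of mm10, and promoter sequences from RefSeq on GRCm38.p6. Python 3.11.15, pandas 2.3.3, numpy 2.4.6 and matplotlib 3.10.9 were used.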

Additional observations from a re-analysis of the deposited data

Results flagged for a closer look

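In 2 members a male vehicle library stood apart from the other 3 of its group by Dixon's criterion for 4 values. Rpl7l1, the partner of Rpl7, was at 5.51 log2 CPM in male vehicle 1, below the 5.61 to 5.62 of the other libraries. Rps27l, the partner of Rps27, was at 4.54 log2 CPM in male vehicle 2, above the 4.41 to 4.42 of the other libraries. Neither gene was called in males. Chance flags about 1 in 20 groups, and 2 of the 90 groups examined were flagged.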

How the results depend on the processing

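The sample titles give all libraries the same replicate number, while the table's column names number them. Libraries with the same column number share only that number: over all genes their deviations from the group means correlated at -0.50 to 0.19 in the 3 female pairs and at -0.06 to 0.12 in the 3 male pairs, and not every library correlated best with its own number. With that number as a replicate block within each sex, an alternative chosen after seeing the data that leaves 4 residual degrees of freedom, limma called 0 members in females (77 at an unadjusted p under 0.05, the median change being -0.61, and -0.42 for males) and 5 in males. Of all 16703 genes this model called 0 in females, and 1.31% fell in males, so the female count of 0 is not particular to the members.

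Under the other 25 alternatives 75 to 78 members fell in females, beside 15.6% to 30.2% of all genes, 0 rose in either sex, and both medians kept their sign. Centring on housekeeping genes moved the female median from -0.69 to -0.49. That scaling puts the median of all genes in females at 0.18 and quantile normalization puts it at 0.13, so changes are best read relative to all genes.

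The number that fell in males was 42 (no trend, beside 9.9% of all genes) to 70 (array weights, 17.9%) under the other scalings, filters and fits. It was 17 when the missing direction entered the model (5.05%), 11 without female vehicle 3 and male DHT 3 (3.44%), and 12 at an adjusted p of 0.01 (2.5%). With each library left out it was 12 (without male DHT 3, 3.92%) to 68 (without female DHT 3, 14.6%). The share of all genes that fell thus moved as well. The number called as different between the sexes was 1 with a mean log2 CPM floor of 1, with a pseudocount of 1 and with voom, and 11 with array weights, and it was 0 to 38 with each library left out. The cause was not tested, and a left-out library also leaves fewer samples.

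Differences of uncalled genes that changed sign were as follows. In females Rpl22l1 was at 0.054 with housekeeping centring. Rpl3l in females was at 0.32 with quantile normalization, 0.18 with housekeeping centring, 0.019 with voom and 0.21 with the replicate block, and between -0.32 and 0.24 with each library left out. Rps4l in females was at 0.041 with quantile normalization and 0.066 with housekeeping centring, and in males at -0.038 with array weights and between -0.14 and 0.085 with each library left out. Rpl7l1 in males was at -0.024 with the replicate block and between -0.024 and 0.036 with each library left out.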

Other observations

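Genes that control translation of ribosomal protein mRNAs and genes linked to their synthesis were listed as well. Of 35 genes of mTORC1 and S6 kinase control, 10 rose and 8 fell in females (median -0.02), and 6 rose and 8 fell in males (median 0.01). The shares that rose and fell were 28.6% and 22.9% in females, beside 19.8% and 27.3% of all genes. In males they were 17.1% and 22.9%, beside 12.1% and 10.7%. Without male DHT 3 the male numbers were 2 and 2, and without female DHT 1 the female number that rose was 4. Eif4ebp1, which holds back cap-dependent translation, fell by 2.06 on the log2 scale in females, and its male difference was -0.37. Eif4ebp2 fell by 0.26 in females and 0.47 in males. Larp1, which binds TOP mRNAs, was not called, at -0.14 in females and 0.12 in males.

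In the MYC family 8 of 13 genes fell in females (61.5%) and 5 in males (38.5%), with 0 that rose. Of all genes 27.3% and 10.7% fell. Without male DHT 3 the male number was 0, while without female DHT 2 the female number was 4. Myc, a driver of ribosome synthesis, fell by 1.26 in females, and its male difference was 0.25. Of 16 genes of the p53 response 9 fell (56.25%) and 1 rose in females. In males 3 fell (18.75%), or 1 without male DHT 3, male vehicle 1 or male vehicle 4. Trp53 fell by 0.67 in females, with -0.32 in males, and Bax fell by 0.82 in females and 0.49 in males. The part of these genes in the change of the ribosomal protein genes was not tested. Ribosome quality control genes had 6 of 19 that fell in females and 2 in males, where 5 rose. Without male DHT 3 these male numbers were 0 and 2. Factors that meet nascent chains had 11 of 22 that fell in females and 6 that rose in males, or 3 without male DHT 3. The quality control shares that fell were close to the 27.3% and 10.7% of all genes. For the nascent chain factors the female share that fell was above the 27.3% of all genes. In both lists the share that rose in males was above the 12.1% of all genes. Without female DHT 1 the female numbers that fell were 3 and 6. After centring on housekeeping genes the quality control genes had 1 that fell and 6 that rose in females, and the nascent chain factors 5 and 5.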
